A study of Mus musculus with 8 samples.

Results

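Heat shock proteins and J-domain chaperones are the proteins that fold, refold and disassemble other proteins. Members were taken by name from the tables of single neurons. They comprise the genes whose symbols begin with Hspa, Hspb, Hsp90, Hspd1, Hspe1, Hsph1, Dnaja, Dnajb or Dnajc, and those that begin with Cct or Bag followed by a digit, without Dnajb13. The rule gave 81 members of 16599 genes. The name rule used no measured value. It also took in Hspbp1 and Hspbap1, which bind heat shock proteins and are not small heat shock proteins themselves, and they are given as a role of their own.

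The neurons were collected by Patch-seq, in which a neuron is first recorded with a patch pipette and its RNA is then sequenced. All came from female ERα-ZsGreen mice on the C57BL6/J background, in which the mouse ERα promoter drives the green protein ZsGreen, so that estrogen receptor-α neurons of the ventrolateral ventromedial hypothalamic nucleus (ERα vlVMH neurons) could be seen in slices. Mice of the study as a whole were 12 to 20 weeks old, with no separate age for the donors of these neurons. Glucose in the bath was 5 mM, then 1 mM, then 5 mM. Glucose-excited (GE) neurons hyperpolarized and fired less at 1 mM, and glucose-inhibited (GI) neurons depolarized and fired more. The comparison asks whether chaperone transcripts differ between these classes, given as GE over GI. It used GE neurons 1, 4, 6 and 8 and GI neurons 2, 5 and 7, and all of them had been through the same glucose steps before collection. GI neuron 3 was left out for low depth. The neurons came from 2 mice that are not assigned to neurons in the labels, and cells are not replicates, so each class counted as 1 sample. No test between the classes was run, and the spread given throughout is that between single neurons.

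HSP70 proteins bind exposed stretches of unfolded chains and let go of them in a cycle driven by ATP. J-domain proteins bring the chains and start the cycle, BAG proteins and the HSP110 proteins help release the nucleotide, HSP90 finishes the folding of kinases and of steroid receptors such as ERα, and the CCT ring folds actin and tubulin. Heat and other protein stress raise a subset of these genes through the factor HSF1, while stress in the endoplasmic reticulum (ER) raises the chaperones of that compartment through ATF6 and XBP1.

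Levels are in FPKM, a fragment count divided by the length of the gene and by the mapped fragments of the library, so that genes can be set side by side. Libraries of the 7 neurons held 6144126 to 14900568 reads, of which 74.7 to 77.3% mapped in all but GE neuron 1, with 48.2%. Neuronal genes were present throughout, with the 5 pan-neuronal markers summing to 794 to 1064 FPKM in GE neurons and to 791 to 909 FPKM in GI neurons. Markers of glia were listed in every neuron too. The 7 astrocyte markers summed to 1033 to 2621 FPKM in GE neurons and to 1160 to 1875 FPKM in GI neurons. Most of each astrocyte sum came from Aldoc, at 685 to 2182 FPKM in GE neurons and 971 to 1462 FPKM in GI neurons. The 7 microglia markers summed to 373 to 920 FPKM in GE neurons and to 435 to 814 FPKM in GI neurons, and the 7 oligodendrocyte markers to 462 to 1127 FPKM in GE neurons and to 315 to 622 FPKM in GI neurons. The 6 endothelial markers summed to no more than 17.8 FPKM in any neuron. Of 4 red blood cell markers, 3 were found. They summed to 372, 761, 892 and 614 FPKM in GE neurons 1, 4, 6 and 8, against 2080, 1455 and 1145 FPKM in GI neurons 2, 5 and 7. Every GI neuron thus lay above every GE neuron in the sum, but in none of the 3 genes alone. Hbb-b1 had 604 FPKM in GE neuron 6 and 375 FPKM in GI neuron 5. Hbb-b2 had 758 FPKM in GE neuron 4 and 117 FPKM in GI neuron 7. Esr1, which encodes ERα, was near or at 0, with 0.873, 0.360, 0 and 0 FPKM in GE neurons, against 1.04, 0 and 0.339 FPKM in GI neurons, although the neurons were chosen by ZsGreen. The part of other cells in the chaperone values was not tested.

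Chaperone transcripts were plentiful and broadly alike in the classes. All 81 members were listed in at least 1 of the 7 neurons and 68 were listed in all 7, with 74 to 77 members listed per GE neuron and 73 to 76 per GI neuron. Together they took 0.382, 0.432, 0.423 and 0.529% of all FPKM in GE neurons 1, 4, 6 and 8, against 0.332, 0.403 and 0.480% in GI neurons 2, 5 and 7. The ranges overlap, and GE neuron 8 stood highest. The log2 ratio of the mean shares was 0.13, but it was 0.03 without GE neuron 8 and 0.00 without GI neuron 2.

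Of the members, 62 had a class mean of at least 5 FPKM and 19 did not. With 1 FPKM added to each mean, the median log2 ratio of the 62 was 0.06, beside 0.02 over the 6990 genes with the same minimum. The mean was higher in GE neurons for 36 members and higher in GI neurons for 26, beside 3656 and 3334 of the 6990 genes. That split of all genes is also the background for the same counts in smaller groups below. The median turned to -0.05 without GE neuron 8 and to -0.06 without GI neuron 5. The log2 ratio was within 0.25 of 0 for 36 of the 62 members, and for 3259 of the 6990 genes. At least a 2-fold higher mean in GE neurons was found for 2 members, Dnajb11 and Hspa2, against 3.71% of all genes. The same margin in favour of GI neurons was found for 1 member, Dnaja3, against 2.92% of all genes. Every GE neuron lay above every GI neuron for 3 members, Cct6a, Dnajb11 and Hspa9, against 2.68% of all genes, and the reverse held for 0 members, against 2.02% of all genes. These counts sit near the background shares and are no result about the members as a family.

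**Figure D1:**
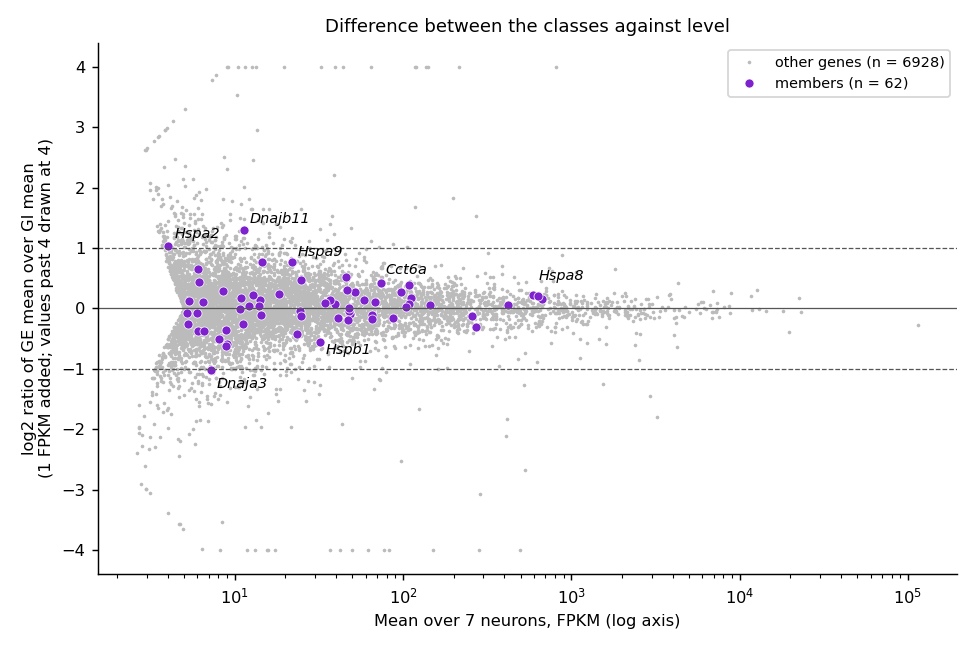
Difference between the classes for single genes. Each point is 1 gene with a class mean of at least 5 FPKM; the horizontal axis is its mean over 7 neurons in FPKM (log axis) and the vertical axis the log2 ratio of the GE mean over the GI mean, with dashed lines at 1 and -1. The 62 members (purple) lie within the cloud of the other genes (grey), and Dnajb11, Hspa2 and Dnaja3 lie past a dashed line.

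A handful of housekeeping chaperones made up most of the signal. Hsp90aa1 and Hsp90ab1 (the cytosolic HSP90 pair), Hspa8 (the constitutive cytosolic HSP70), Hspe1 (the co-chaperonin of mitochondria), Dnajc19 and Dnajc15 (J-domain proteins of the mitochondrial import motor) together held 57.3 to 59.8% of the members' FPKM in GE neurons and 56.7 to 61.0% in GI neurons. The mean over the 7 neurons was at least 100 FPKM for 11 members and at least 20 FPKM for 35, and it was below 1 FPKM for 8.

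**Figure D2:**
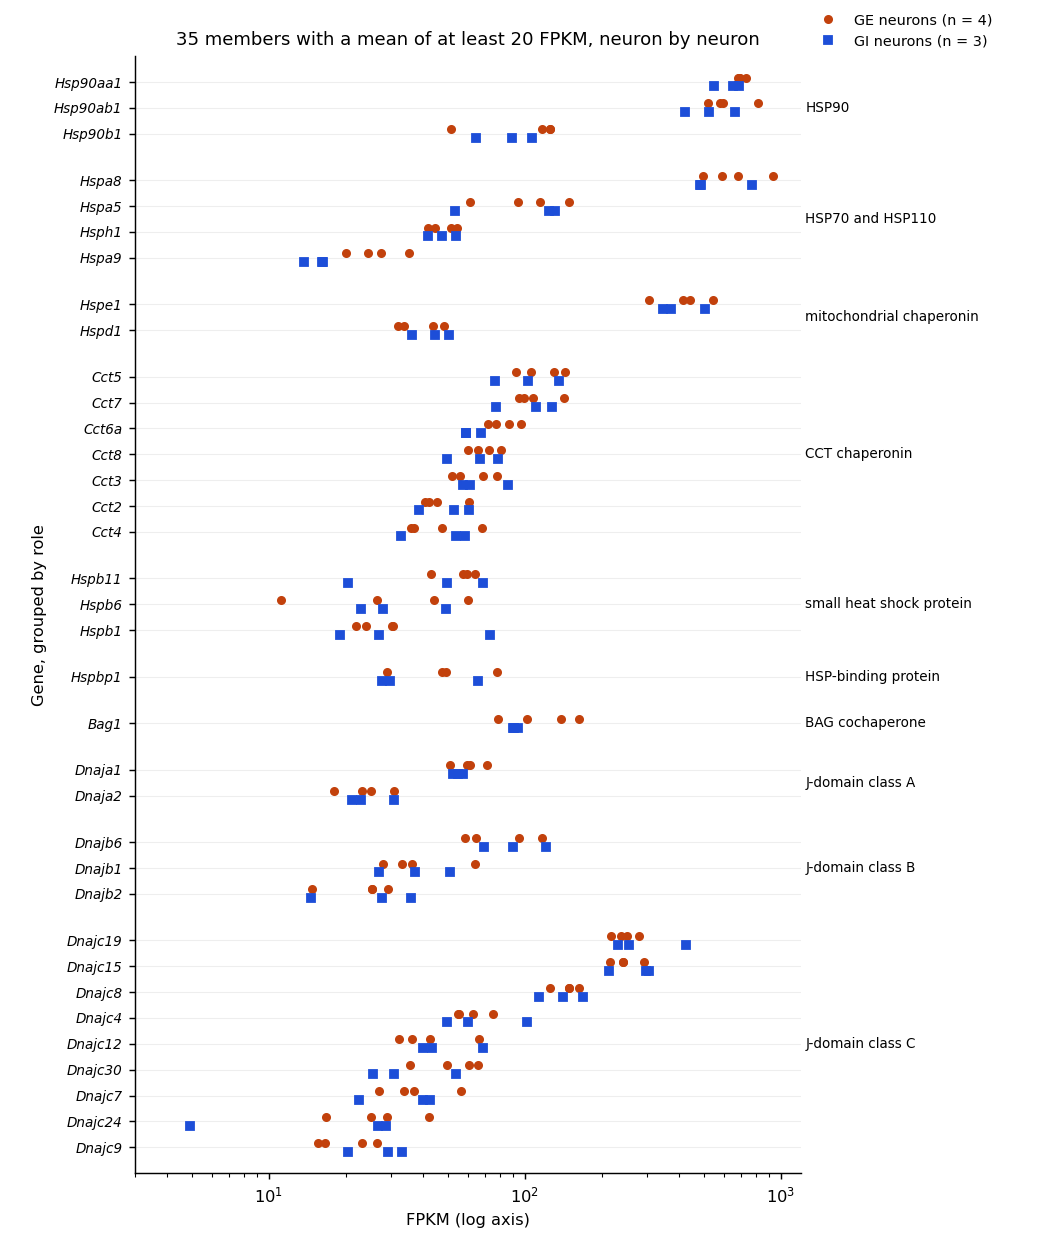
Level of 35 members with a mean of at least 20 FPKM, by role. Each orange circle is 1 of 4 GE neurons and each blue square 1 of 3 GI neurons, on a log axis of FPKM. The classes overlap in all of them except Hspa9 and Cct6a, where the GE neurons lie to the right of the GI neurons.

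Among HSP90 genes, Hsp90aa1, the form that stress can raise, was close to even. It had 680, 695, 691 and 734 FPKM in GE neurons 1, 4, 6 and 8, against 550, 691 and 651 FPKM in GI neurons 2, 5 and 7 (log2 ratio 0.15). GI neuron 2 was the low one, and the other 6 neurons spanned a narrow range. Hsp90ab1, the constitutive form, had 518, 594, 579 and 818 FPKM in the GE neurons, against 422, 525 and 662 FPKM in the GI neurons (log2 ratio 0.23). It was highest in GE neuron 8 and lowest in GI neuron 2. The level of Hsp90aa1 relative to Hsp90ab1 was 0.897 to 1.31 in GE neurons and 0.984 to 1.31 in GI neurons, so neither form dominated.

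Within the HSP70 family, Hspa8 had 588, 496, 680 and 934 FPKM in GE neurons 1, 4, 6 and 8, against 486, 488 and 772 FPKM in GI neurons 2, 5 and 7 (log2 ratio 0.21). It peaked in GE neuron 8 and in GI neuron 7, the classes overlap, and without GE neuron 8 the ratio was 0.01. The stress-induced HSP70 genes were near the floor in the same neurons. Hspa1a had 1.24, 2.27, 2.95 and 3.12 FPKM in the GE neurons, against 3.43, 0.617 and 2.94 FPKM in the GI neurons (log2 ratio 0.03). Hspa1b had 0.246, 0.941, 0.294 and 1.03 FPKM in the GE neurons, against 0.353, 0.819 and 1.33 FPKM in the GI neurons (log2 ratio -0.17). Neither gene separated the classes. Hspa8 was 155 to 397 times the sum of Hspa1a and Hspa1b in GE neurons, and 129 to 340 times in GI neurons. Hspa1a and Hspa1b are near-identical neighbours on chromosome 17, so their reads may have been split between them. Hspa8, Hsp90ab1, Hspe1 and several CCT genes have processed copies elsewhere in the genome, and the sources used here do not say how reads with several matches were counted.

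The remaining members of the HSP70 and HSP110 role ran from even to single-neuron genes. Hsph1, an HSP110 protein that heat raises, was the most even of all members listed in every neuron: 51.4, 41.7, 44.5 and 54.2 FPKM in GE neurons, against 41.7, 53.7 and 47.4 FPKM in GI neurons, a highest value 1.30 times the lowest. Hsp90aa1 followed at 1.33 times and Hspa4l, a relative of Hsph1, at 1.36 times. Hspa4l had 13.4, 16.2, 11.9 and 14.9 FPKM in GE neurons, against 13.2, 13.7 and 14.1 FPKM in GI neurons (log2 ratio 0.04). Hspa2, an HSP70 best known from the testis, had 2.54, 1.90, 1.32 and 16.0 FPKM in GE neurons 1, 4, 6 and 8, against 0, 1.61 and 4.79 FPKM in GI neurons 2, 5 and 7. Its log2 ratio of 1.04 rests on GE neuron 8, and without that neuron it was -0.10. Hspa2 lies on chromosome 12 (GRCm38 chr12:76404176-76406938, plus strand).

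Hspa9, the HSP70 of the mitochondrial matrix, was one of the 3 genes without overlap. It had 27.5, 20.1, 24.3 and 35.4 FPKM in GE neurons 1, 4, 6 and 8, against 16.2, 13.7 and 16.2 FPKM in GI neurons 2, 5 and 7. The log2 ratio was 0.76, and it was 0.61 to 0.88 with each neuron left out in turn. GE neuron 4 stood closest to the GI neurons, and the interval the files list for it, 16.4 to 23.8 FPKM, overlaps that of GI neuron 2, 12.4 to 19.99 FPKM. With GI neuron 3 included, the ratio was 0.11, since that shallow library listed 53.1 FPKM with an interval of 5.604 to 101 FPKM.

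Other mitochondrial members were mixed. Dnajc30 leaned toward GE neurons like Hspa9, with a log2 ratio of 0.51, and so did Dnajc11, which fell short of the minimum, with 0.67. The classes overlap for both. Hspe1, Hspd1, Dnajc19 and Dnajc15 did not follow Hspa9. Hspe1 had 543, 442, 414 and 307 FPKM in GE neurons, against 506, 373 and 347 FPKM in GI neurons (log2 ratio 0.06), and Hspd1, its partner in the chaperonin that folds imported proteins, had 33.6, 48.2, 32.0 and 43.7 FPKM in GE neurons, against 36.3, 44.7 and 50.8 FPKM in GI neurons (log2 ratio -0.15). In Hspe1 the highest and the lowest neuron were both GE neurons. Dnajc19 had 280, 252, 218 and 237 FPKM in GE neurons, against 429, 255 and 231 FPKM in GI neurons (log2 ratio -0.30), and the high value was that of GI neuron 2, without which the ratio was 0.02. Dnajc15 had 294, 215, 242 and 242 FPKM in GE neurons, against 297, 306 and 214 FPKM in GI neurons (log2 ratio -0.13).

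Dnaja3, the J-domain partner of Hspa9, was the member with the largest difference toward GI neurons. It had 3.75, 7.79, 1.97 and 5.21 FPKM in GE neurons 1, 4, 6 and 8, against 16.1, 4.803 and 10.7 FPKM in GI neurons 2, 5 and 7 (log2 ratio -1.02). GI neuron 5 lay among the GE neurons, so the classes overlap. The ratio ran between -1.34 and -0.63 with each neuron left out, and it was short of 2-fold without GE neuron 1, GE neuron 6 or GI neuron 2. Dnaja3 lies on chromosome 16 (GRCm38 chr16:4639989-4707695, plus strand). Hspa9 and Dnaja3, which work on the same clients, thus had ratios of opposite sign.

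The CCT ring was represented by 7 subunits past the minimum, while Cct8l1, a gene related to Cct8, was listed only in GE neuron 6, at 0.109 FPKM. The subunits averaged 64.4 to 86.6 FPKM in GE neurons and 57.9 to 80.0 FPKM in GI neurons, and the highest subunit was 2.58 to 3.48 times the lowest in GE neurons and 2.36 to 3.33 times in GI neurons, although the ring holds its subunits in equal numbers. Cct6a, which encodes the zeta subunit, had 87.0, 72.1, 77.2 and 96.7 FPKM in GE neurons, against 58.7, 59.0 and 67.2 FPKM in GI neurons (log2 ratio 0.43), with no overlap. The interval listed for its lowest GE neuron, 63.3 to 80.9 FPKM in GE neuron 4, overlaps that of its highest GI neuron, 57.1 to 77.4 FPKM in GI neuron 7. The subunits did not move together: log2 ratios of the other 6 lay between -0.10 and 0.17, from Cct3 to Cct5. Cct5 had 144, 92.2, 106 and 130 FPKM in GE neurons, against 136, 76.3 and 103 FPKM in GI neurons, and Cct7 had 107, 95.3, 99.4 and 143 FPKM in GE neurons, against 111, 77.2 and 128 FPKM in GI neurons. Both were lowest in GI neuron 5. Cct6a lies on chromosome 5 (GRCm38 chr5:129786998-129846371, plus strand).

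**Figure D3:**
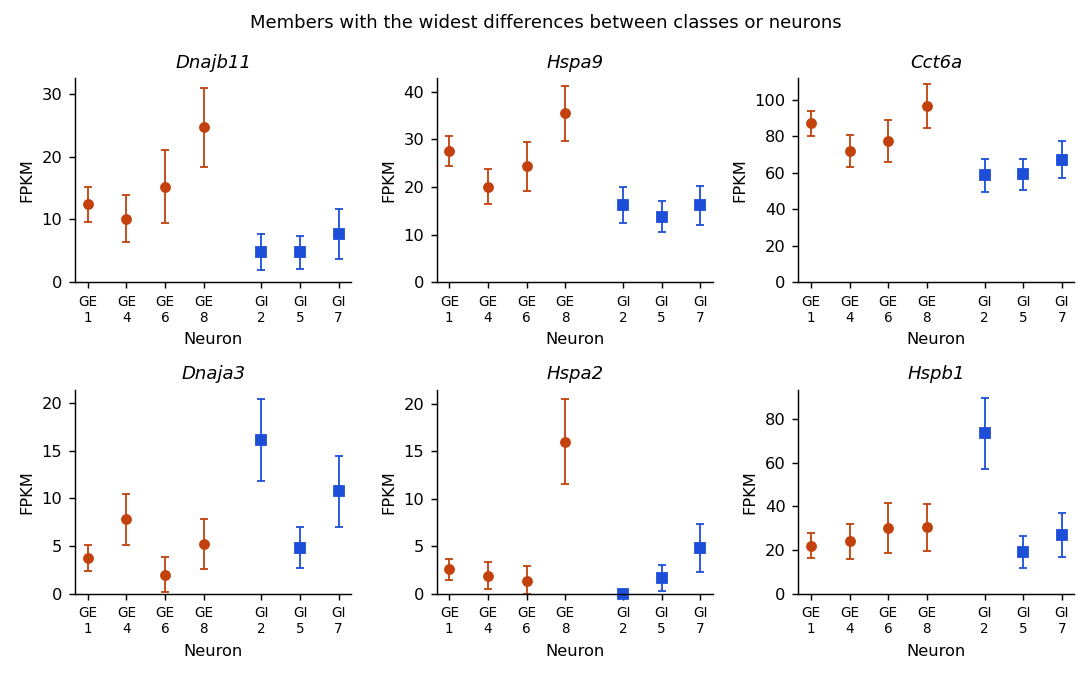
6 members, neuron by neuron. The vertical axes give FPKM, orange circles are GE neurons, blue squares are GI neurons, and bars are the intervals listed in the files for each value. GE neurons lie above GI neurons for Dnajb11, Hspa9 and Cct6a, whereas GE neuron 8 stands out for Hspa2 (16.0 FPKM) and GI neuron 2 for Hspb1 (73.5 FPKM). Hspa2 has no row in GI neuron 2 and is drawn there at 0.

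The small heat shock proteins, which hold unfolded chains without ATP, varied widely from neuron to neuron. Hspb1 had 21.9, 24.0, 30.2 and 30.5 FPKM in GE neurons 1, 4, 6 and 8, against 73.5, 19.0 and 26.9 FPKM in GI neurons 2, 5 and 7 (log2 ratio -0.56). GI neuron 2 alone set that sign, and without it the ratio was 0.21. Hspb6 had 26.5, 11.1, 44.0 and 59.8 FPKM in GE neurons, against 49.2, 22.8 and 28.0 FPKM in GI neurons (log2 ratio 0.08), and Hspb11, which belongs to the transport machinery of cilia despite its name, had 59.5, 43.0, 64.0 and 57.1 FPKM in GE neurons, against 49.7, 20.4 and 68.7 FPKM in GI neurons (log2 ratio 0.27). Both overlapped widely. Hspb3, a muscle form, was listed in GE neuron 1 only, at 8.85 FPKM with an interval of 4.89 to 12.8 FPKM, and was not listed in the other neurons.

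Heat-inducible genes were then read as a group of 13, namely Hspa1a, Hspa1b, Hspa8, Hsp90aa1, Hsph1, Hspb1, Dnajb1, Dnaja1, Dnajb4, Hspd1, Hspe1, Hspa4l and Bag3. Their FPKM summed to 2046, 1871, 2005 and 2255 in GE neurons 1, 4, 6 and 8, against 1812, 1778 and 2041 in GI neurons 2, 5 and 7. Most of that sum came from Hspa8, Hsp90aa1 and Hspe1, with means of 675, 700 and 427 FPKM in GE neurons. These are also among the housekeeping chaperones above, so the sum mainly follows them. Hspa1a and Hspa1b together added only 1.48 to 4.15 FPKM in GE neurons and 1.44 to 4.28 FPKM in GI neurons. The log2 ratio of the class means was 0.12, with 7 of the 10 past the minimum higher in GE neurons and 3 higher in GI neurons, and none by 2-fold. Dnaja1, the main class A partner of HSP70, had 71.2, 59.6, 51.2 and 61.1 FPKM in GE neurons, against 57.6, 55.0 and 52.3 FPKM in GI neurons (log2 ratio 0.14). Dnajb1, the class B partner that heat raises most, had 27.9, 33.1, 36.4 and 63.8 FPKM in GE neurons, against 37.1, 27.0 and 51.2 FPKM in GI neurons (log2 ratio 0.07). Its peaks were in GE neuron 8 and GI neuron 7, as for Hspa8. Dnajb4 had 13.5, 9.53, 10.98 and 6.83 FPKM in GE neurons, against 6.45, 11.1 and 19.6 FPKM in GI neurons (log2 ratio -0.26). Bag3, which links HSP70 to autophagy and is raised by stress, stayed low, with 0.859, 0.820, 0 and 1.69 FPKM in GE neurons, against 0.770, 1.12 and 3.77 FPKM in GI neurons.

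The immediate early list, 14 genes such as Fos that firing and handling switch on, was summed beside it. It came to 361, 379, 332 and 615 FPKM in GE neurons 1, 4, 6 and 8, against 653, 327 and 476 FPKM in GI neurons 2, 5 and 7, with 1 of 10 genes past the minimum higher in GE neurons and 9 higher in GI neurons. GI neuron 2 was highest for the immediate early list and next to lowest for the heat-inducible sum. Whether handling of the slices had a part in either list was not tested.

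Binding of HSF1 is usually ascribed to heat shock elements, repeats of a GAA unit in alternating direction. The promoter windows of RefSeq on GRCm38.p6, 250 bases before to 50 bases after each annotated start, were searched for 3 exact units, GAANNTTCNNGAA or its reverse complement TTCNNGAANNTTC, where overlapping matches were counted. A match was found in 0.603% of the 32851 windows of all genes, and in 0.662% of the 27025 genes with a window. Windows were held for 67 of the 81 members, and 4 of them had a match, or 5.97%. Of the 13 heat-inducible members 11 had a window, and 3 of those had a match. The 8 without a match were Hspa1a, Hspa1b, Hspb1, Dnajb1, Dnaja1, Dnajb4, Hspa4l and Bag3. An exact search passes over elements that differ by a letter, so these genes cannot be said to lack one. The stretches are shown because they are the ones found among members, in Hsph1, in Dnajb6 and in the Hspd1 and Hspe1 pair. Each is 30 bases long, with the element in capitals.
Hspe1, chr1:55088053-55088082, plus strand: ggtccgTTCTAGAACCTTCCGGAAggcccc
Dnajb6, chr5:29735844-29735873, plus strand: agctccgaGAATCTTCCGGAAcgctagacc
Hsph1, chr5:149636279-149636308, minus strand: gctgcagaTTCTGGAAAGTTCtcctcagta

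The capitals of Hspe1 are a pair of overlapping matches that make 4 units in a row. They belong to Hspd1 as well, since these genes are divergent, with 215 bases between the start of Hspe1 and 1 of the 2 annotated starts of Hspd1 on the other strand, while transcripts from the other start overlap Hspe1. Over the 7 neurons, Hspe1 was at 419 FPKM and Hspd1 at 41.3 FPKM. GE neuron 1 was highest of the GE neurons for Hspe1, and GE neuron 4 for Hspd1. The part of the shared stretch in these levels was not tested. The element of Hsph1 lies just after its annotated starts. A match is a description of the letters, and binding was not measured.

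Dnajb6, which keeps polyglutamine and other aggregation-prone chains soluble, had 116, 64.4, 58.3 and 94.8 FPKM in GE neurons 1, 4, 6 and 8, against 121, 69.1 and 90.0 FPKM in GI neurons 2, 5 and 7 (log2 ratio -0.16). Dnajb2, a neuronal J-domain protein that passes clients to the proteasome, had 25.3, 25.4, 14.7 and 29.2 FPKM in GE neurons, against 27.6, 14.6 and 35.8 FPKM in GI neurons (log2 ratio -0.13). Neither separated the classes.

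The main HSP70 and HSP90 of the ER lumen varied more from neuron to neuron than between class means. Hspa5 (BiP), the HSP70 of the ER, had 60.9, 93.7, 115 and 149 FPKM in GE neurons 1, 4, 6 and 8, against 53.4, 124 and 132 FPKM in GI neurons 2, 5 and 7 (log2 ratio 0.02). Hsp90b1 (GRP94), its HSP90, had 51.7, 126, 126 and 117 FPKM in GE neurons, against 64.3, 107 and 89.4 FPKM in GI neurons (log2 ratio 0.27). In both genes GE neuron 1 and GI neuron 2 were the lowest of their class. Without GE neuron 1, the log2 ratio of Hsp90b1 was 0.49 and its classes did not overlap.

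Dnajb11 (ERdj3), the J-domain partner that brings unfolded chains to BiP, was the member with the largest difference among those past the minimum. It had 12.4, 10.1, 15.2 and 24.7 FPKM in GE neurons 1, 4, 6 and 8, against 4.78, 4.76 and 7.69 FPKM in GI neurons 2, 5 and 7 (log2 ratio 1.30). The classes do not overlap, and with each of the 7 neurons left out in turn the ratio was 1.01 to 1.52. The listed intervals of GE neuron 4 (6.35 to 13.9 FPKM) and GI neuron 7 (3.70 to 11.7 FPKM) overlap. GI neuron 3 went the other way, with 50.2 FPKM and an interval of 0 to 133 FPKM, and with it in the GI class the ratio was -0.11. Dnajb11 lies on chromosome 16 (GRCm38 chr16:22857845-22879634, plus strand).

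Other J-domain members of the ER lumen leaned the other way or hardly at all. Dnajc3 (p58IPK), an ER partner of BiP raised by ER stress, had 4.89, 6.65, 6.16 and 10.2 FPKM in GE neurons, against 9.11, 11.5 and 13.3 FPKM in GI neurons (log2 ratio -0.63), where only GE neuron 8 reached into the range of the GI neurons. Dnajb9 (ERdj4) had 4.33, 6.23, 5.51 and 10.5 FPKM in GE neurons, against 9.58, 11.98 and 8.09 FPKM in GI neurons (log2 ratio -0.51), again with an overlap only through GE neuron 8. Dnajc10 (ERdj5), a reductase of the ER, had 8.20, 14.6, 10.4 and 15.8 FPKM in GE neurons, against 3.83, 14.5 and 17.4 FPKM in GI neurons (log2 ratio 0.04). Thus the J-domain members of the ER lumen had ratios from -0.63 to 1.30, beside 0.02 for BiP itself.

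Elements that ATF6 and XBP1 are known to read were searched in the same windows on both strands. The ER stress response element, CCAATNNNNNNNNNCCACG or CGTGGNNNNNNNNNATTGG, was found in 0.119% of all windows, in 0.137% of genes with a window and in 3 members, Hspa5, Hsp90b1 and Dnajc3. The related element ATTGGNCCACG or CGTGGNCCAAT was found in 0.0365% of all windows, in 0.0444% of genes with a window and in 1 member, Dnajb11. The match of Dnajb11 lies just after its annotated start, whereas those of Hspa5, Hsp90b1 and Dnajc3 lie before theirs. These stretches of 30 bases are shown because 4 of the 7 ER lumen members with a window carry one, with the element in capitals, and Hsp90b1 carries it at 2 sites.
Hspa5, chr2:34772020-34772049, plus strand: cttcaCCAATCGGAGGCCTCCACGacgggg
Hsp90b1, upstream site, chr10:86705632-86705661, minus strand: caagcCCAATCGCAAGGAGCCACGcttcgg
Hsp90b1, downstream site, chr10:86705527-86705556, minus strand: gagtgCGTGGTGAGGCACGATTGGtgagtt
Dnajc3, chr14:118937822-118937851, plus strand: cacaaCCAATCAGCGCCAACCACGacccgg
Dnajb11, chr16:22857843-22857872, plus strand: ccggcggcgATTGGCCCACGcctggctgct

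Genes that carry these letters did not share a pattern across the classes: the log2 ratio was 0.02 for Hspa5, 0.27 for Hsp90b1, -0.63 for Dnajc3 and 1.30 for Dnajb11. What Hspa5, Hsp90b1 and Dnajc3 did share was the lowest neuron of each class, since GE neuron 1 was the lowest GE neuron and GI neuron 2 the lowest GI neuron for each of them. Dnajb11 had its lowest GE value in GE neuron 4.

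That pattern was counted over all members after it had been seen. GE neuron 1 and GI neuron 2 were both lowest for 8 of the 62 members, beside 13.3% of all 6990 genes, so it did not mark the members as a whole. It held for 4 of the 7 ER lumen members past the minimum, which were Hspa5, Hsp90b1, Dnajc3 and Dnajc10, for all 3 HSP90 genes and for 0 of the 7 mitochondrial members. Hspa5, Hsp90b1 and Dnajc3 are the genes in which it was first seen, and Hsp90b1 counts in both groups. The compartment groups were also drawn up after seeing the values, so these counts only describe the members. In a list of 19 unfolded-protein genes that are not members, 14 were past the minimum and the pattern held for 7 of those, Calr, Canx, Pdia3, Pdia6, Creld2, Herpud1 and Sel1l. Calr, a lectin chaperone of the ER, had 52.8, 65.7, 75.5 and 110 FPKM in GE neurons 1, 4, 6 and 8, against 32.1, 61.5 and 76.6 FPKM in GI neurons 2, 5 and 7. Pdia3, the disulfide isomerase that works with it, had 18.9, 48.4, 44.6 and 64.7 FPKM in GE neurons, against 15.1, 34.3 and 49.2 FPKM in GI neurons.

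Summed over the 8 ER lumen members, the level was 153, 267, 290 and 337 FPKM in GE neurons 1, 4, 6 and 8, against 157, 283 and 283 FPKM in GI neurons 2, 5 and 7. Hspa5 and Hsp90b1 made up most of this ER sum, with means of 105 and 105 FPKM in GE neurons and 103 and 87.0 FPKM in GI neurons. The low neurons were first seen in these genes, so the low ER sums largely restate them. The sum over the 8 mitochondrial members ran in the opposite order in these neurons, with 1246, 1036, 975 and 943 FPKM in GE neurons, against 1333, 1024 and 926 FPKM in GI neurons. Hspe1, Dnajc15 and Dnajc19 made up most of it, with means of 427, 248 and 247 FPKM in GE neurons. Not every member shared that order. Hspa9, Dnajc30 and Dnajc11 had their highest GE value in GE neuron 8, and Hspd1 its lowest GI value in GI neuron 2. GE neuron 1 and GI neuron 2 also had the lowest astrocyte sums, 1033 and 1160 FPKM, where the other 5 neurons had at least 1751 FPKM. Their microglia (373 and 435 FPKM) and oligodendrocyte sums (462 and 315 FPKM) were the lowest too. They had the highest sums of FPKM over all genes, 1.31e+06 and 1.43e+06, where the other 5 neurons had 1.04e+06 to 1.11e+06. The ER and mitochondrial sums were not divided by these totals, so a high sum there need not be a high share. The part of those properties in the ER and mitochondrial sums was not tested. Without both neurons, the median log2 ratio was -0.22 for the 7 ER lumen members past the minimum, beside 0.02 with them, and 2 of the 7 were then higher in GE neurons, beside 4 with them.

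**Figure D4:**
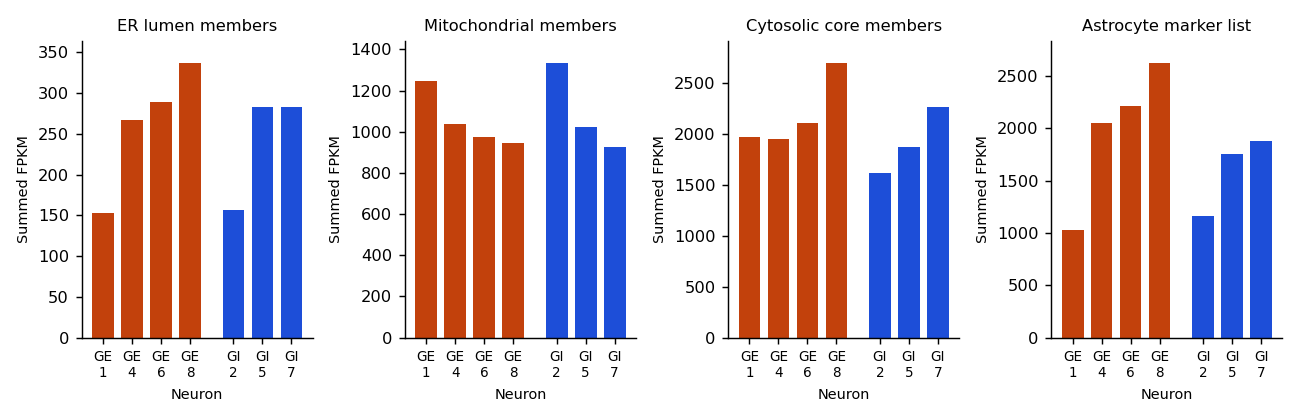
Summed FPKM per neuron of 3 groups of members and of the astrocyte list. Orange bars are GE neurons and blue bars GI neurons, with each vertical axis from 0. ER lumen members are low in GE neuron 1 (153 FPKM) and GI neuron 2 (157 FPKM), which have the highest mitochondrial sums (1246 and 1333 FPKM) and the lowest astrocyte sums (1033 and 1160 FPKM). These neurons also have the highest sums of FPKM over all genes, by which the bars are not divided. Hspa5 and Hsp90b1 make up most of the ER lumen sums, and Aldoc most of the astrocyte sums.

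At the other end, GE neuron 8 and GI neuron 7 were both highest of their class for 19 of the 62 members, or 30.6%, beside 18.9% of all 6990 genes. These 19 included Hspa8, Hsp90ab1, Hspa5, Dnajb1, Cct7 and Dnajc7, which holds clients between HSP70 and HSP90. The 7 cytosolic core members, Hspa8, Hsp90aa1, Hsp90ab1, Hsph1, Dnaja1, Dnaja2 and Dnajb1, summed to 1967, 1944, 2100 and 2690 FPKM in GE neurons 1, 4, 6 and 8, against 1617, 1870 and 2257 FPKM in GI neurons 2, 5 and 7. GE neuron 8 and GI neuron 7 also had the highest astrocyte and microglia sums of their class, and the part of that was not tested. The astrocyte sum follows Aldoc, and single astrocyte markers were mixed. Gfap was highest of its class in both neurons. S100b and Aldh1l1 were lowest of the GE neurons in GE neuron 8, and Slc1a3, Aldh1l1 and Gja1 were lower in GI neuron 7 than in GI neuron 5. Dnaja2 had 30.8, 23.1, 18.0 and 25.1 FPKM in GE neurons, against 22.8, 30.8 and 21.1 FPKM in GI neurons (log2 ratio -0.04).

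J-domain class C, the largest role, holds proteins that share the J domain and little else. Of its 25 members 18 passed the minimum, 11 with a higher mean in GE neurons and 7 with a higher mean in GI neurons, and log2 ratios ran from -0.63 to 0.78. Dnajc8, a splicing factor, had 149, 125, 163 and 149 FPKM in GE neurons, against 169, 114 and 141 FPKM in GI neurons (log2 ratio 0.05). Dnajc2, which works on the ribosome on chains that are being made, had the highest ratio of the role: 19.0, 25.5, 5.42 and 21.3 FPKM in GE neurons, against 10.04, 8.97 and 10.9 FPKM in GI neurons (log2 ratio 0.78). GE neuron 6 lay below all GI neurons. Dnajc5, the cysteine string protein of synaptic vesicles, had 22.7, 15.2, 15.9 and 24.7 FPKM in GE neurons, against 13.6, 16.8 and 19.3 FPKM in GI neurons (log2 ratio 0.23). Dnajc6 (auxilin), which strips clathrin from vesicles in neurons, had 9.22, 3.02, 3.74 and 5.07 FPKM in GE neurons, against 4.99, 9.40 and 7.09 FPKM in GI neurons (log2 ratio -0.38). Dnajc12, a co-chaperone of the aromatic amino acid hydroxylases, had 66.3, 36.1, 32.2 and 42.6 FPKM in GE neurons, against 68.9, 39.9 and 43.4 FPKM in GI neurons (log2 ratio -0.19). These synaptic and enzyme-bound members overlapped between the classes.

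Dnajc24, which takes part in making diphthamide on elongation factor 2, had 25.02, 42.1, 16.8 and 28.9 FPKM in GE neurons, against 4.93, 28.7 and 26.7 FPKM in GI neurons (log2 ratio 0.47). The low value was that of GI neuron 2. Dnajc17 was among the least even members, with 20.7, 9.94, 1.88 and 26.6 FPKM in GE neurons, against 24.3, 12.2 and 3.36 FPKM in GI neurons. Its highest value was 14.1 times its lowest, and only Dnajb3 exceeded it among members listed in all 7 neurons, at 21.5 times.

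Release factors of HSP70 were led by Bag1, with 163, 102, 79.0 and 138 FPKM in GE neurons, against 89.9, 94.5 and 90.8 FPKM in GI neurons (log2 ratio 0.39). The GI neurons were nearly equal and GE neuron 6 lay below them. Bag5 had 14.1, 8.84, 7.92 and 15.3 FPKM in GE neurons, against 11.1, 5.78 and 13.6 FPKM in GI neurons (log2 ratio 0.17), and Bag2, which holds back the ubiquitin ligase of HSP70, had 7.16, 3.31, 7.58 and 10.8 FPKM in GE neurons, against 16.5, 6.23 and 11.6 FPKM in GI neurons (log2 ratio -0.59). Hspbp1, another release factor, had 47.5, 49.1, 29.0 and 77.8 FPKM in GE neurons, against 65.4, 29.8 and 27.8 FPKM in GI neurons (log2 ratio 0.30). Each of these overlapped. Hspbap1 was listed only in GE neuron 6, at 0.698 FPKM, and in GI neuron 2, at 1.67 FPKM.

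The spread between the 7 neurons was like that of other genes of the same level. Among members listed in all 7 neurons, the median of the highest over the lowest value was 3.18 for 26 members with means of 5 to 20 FPKM, beside 3.56 for all 3259 genes of that band. It was 2.14 for 24 members at 20 to 100 FPKM, beside 2.45 for 1825 genes, and 1.89 for 11 members at 100 FPKM or more, beside 1.89 for 1076 genes.

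Partners outside the members were read from a list of 29, of which 28 were found and 22 passed the minimum. The mean was higher in GE neurons for 12 and in GI neurons for 10, with a median log2 ratio of 0.13 and no gene past 2-fold in either direction. Cryab, a small heat shock protein under another name, was the one without overlap: 390, 340, 290 and 244 FPKM in GE neurons, against 240, 206 and 205 FPKM in GI neurons (log2 ratio 0.54). Hsf1, the factor of the heat shock response, had 6.36, 5.10, 8.84 and 13.7 FPKM in GE neurons, against 9.13, 9.64 and 13.7 FPKM in GI neurons (log2 ratio -0.32). Tcp1, the CCT subunit whose name the rule does not take, had 38.8, 21.1, 39.3 and 56.4 FPKM in GE neurons, against 47.4, 30.1 and 45.6 FPKM in GI neurons (log2 ratio -0.07). Of the 14 unfolded-protein genes past the minimum, 9 were higher in GE neurons and 5 in GI neurons, with a median log2 ratio of 0.14.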

How the data were processed

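Single neurons were lysed and amplified with SMART-Seq v4, and Nextera libraries were sequenced as 100 bp paired-end reads on an Illumina HiSeq instrument. The values analysed are FPKM per gene that the authors deposited with 1 table per neuron, along with a lower and an upper bound for each value. No source used here gives the aligner, annotation or build behind the FPKM. The submitters' processing notes name Trim Galore 0.4.1, STAR 2.5.3a, featureCounts 1.6.0 and GRCm38.p6, without tying them to the FPKM. The notes also name a human build, GRCh38, and the labels add a human cell type to each neuron's description. The tables hold mouse gene symbols, and why human terms appear was not resolved. Positions in these tables were within 1000 bases of GENCODE genes on GRCm38 at both ends for 5 of 81 members, so positions were taken from GENCODE and RefSeq instead. Mapping rates were deposited as a fraction by the authors, along with read numbers, and were multiplied to percent.

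A gene without a row was set to 0. Left out were 110 names with several positions and 24 that a spreadsheet had made into dates. Class means were compared as log2((GE mean + 1)/(GI mean + 1)), with a class mean of at least 5 FPKM as the minimum, and 2-fold or no overlap between neurons counted as a difference. FPKM hold no read counts, so precision is given by the listed bounds, whose meaning was not stated: their median half-width was 34% of the value for members at 5 to 20 FPKM, 17.7% at 20 to 100 FPKM and 10.7% at 100 FPKM or more. Members, lists and alternatives were chosen with earlier results of these data known, and compartment groups and the counts of low and high neurons after seeing the values. Values in every neuron are given for members past 2-fold, without overlap, among the 3 highest of a role, in the heat-inducible list or listed in 1 class only with a mean of at least 1 FPKM in it, and for others chosen after their values were seen. Alternatives were another class level, GI neuron 3, leaving out each neuron, other added values and minimums, and other scalings. Scripts were tested on simulated data and run with Python 3.11.15, numpy 2.4.6 and pandas 2.3.3.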

Additional observations from a re-analysis of the deposited data

Results flagged for a closer look

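Of 62 values examined in the GE class of 4 (members given neuron by neuron and sums), 4 had a neuron that stood far from the other 3. The usual rate of about 1 in 20 for this measure does not apply here. Some members, such as Hspa2 and Hspb3, were given because of wide differences, and the sums hold the same genes. Hsp90b1 was at 51.7 FPKM in GE neuron 1, against 117 to 126 FPKM in the other GE neurons. Hspa2 was at 16.0 FPKM in GE neuron 8, against 1.32 to 2.54 FPKM in the others. Hspb3 was at 8.85 FPKM in GE neuron 1 and Hspbap1 at 0.698 FPKM in GE neuron 6, and neither was listed in the other GE neurons. Those absent rows were set to 0, and with 3 values at 0 any value in the other neuron stands apart by this measure.

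GI neuron 3, which entered no comparison of the main set, held 126914 reads and listed 53 of the 81 members, with 28 not listed. Of the 62 members past the minimum, 22 lay within the range of the 7 other neurons there, 19 above it and 21 below it. Among those above was Dnajb6, at 328 FPKM.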

How the results depend on the processing

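The median log2 ratio of members was -0.06 to 0.14 with each neuron left out, and the ratios of the heat-inducible sum (0.07 to 0.19) and of the members' share of FPKM (0.00 to 0.27) stayed above 0; none moved by more than the spread between neurons. Counts of a few members were less stable. With each neuron left out, 1 to 3 members were at least 2-fold higher in GE neurons, 0 to 1 in GI neurons, 3 to 7 had every GE neuron above every GI neuron (6 without GE neuron 6, 7 without GI neuron 7) and 0 to 3 had the reverse (3 without GI neuron 5). Members 2-fold higher in GE neurons numbered 0 with 5 FPKM added in place of 1, 0 at a class mean of at least 20 FPKM, 4 without a minimum, and 1 under either rescaling (by the sum without mitochondrial-genome genes, or by the median of ratios). Members 2-fold higher in GI neurons numbered 0 with 5 FPKM added, 0 at a class mean of at least 20 FPKM and 0 rescaled without mitochondrial-genome genes. With GI neuron 3 added, 0 members had every GE neuron above every GI neuron, and 1 member, Dnajc3, had the reverse under the median of ratios. Of the members past 2-fold, the direction reversed for Dnajb11 with GI neuron 3 added (-0.11) and for Hspa2 without GE neuron 8 (-0.10), the lowest of its values with each neuron left out, of which the highest was 1.83. Over 46 members given neuron by neuron, 9 of them added after seeing the values, 583 of 598 recomputed ratios moved by less than the spread between neurons, 13 moved by more and those 2 reversed. The sign turned in 61 of the 598, over 25 members. Past the spread this was so, beside Dnajb11 and Hspa2, for members short of 2-fold: Bag5 with GI neuron 3 added (-0.39), and Hspb1 (0.21), Hspbap1 (0.23) and Dnajc19 (0.02) without GI neuron 2.

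No paired analysis was possible because GE and GI neurons share no replicate number and the mice are not assigned to neurons. With 1 sample per class, 7 neurons in all and no counts, differences within the listed intervals were not detectable, and values under 5 FPKM carry wide ones.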
